A study of Mus musculus with 18 samples.

Results

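Voltage-gated sodium channels are described here through 9 of their genes, Scn1a, Scn3a, Scn7a, Scn8a, Scn9a, Scn10a, Scn11a, Scn2b and Scn4b, which were taken by gene symbol from a table of 51290 genes. Bulk poly(A) RNA had been sequenced from 18 mouse samples in 3 groups of 6, to compare MPNST, the malignant tumours of the peripheral nerve sheath, with plexiform neurofibromas, their benign counterparts. The 6 mice with MPNST had both Nf1 flox/flox and Arf flox/flox, together with PostnCre+, and where in the body these tumours lay is not labelled. The plexiform neurofibromas were trigeminal nerves of Nf1 flox/flox PostnCre+ animals, and the normal nerves were trigeminal nerves of Nf1 flox/flox PostnCre- animals. Floxed Nf1 was thus common to all 3 groups, Cre was driven by the Postn promoter in both tumour groups, and Arf was floxed in the MPNST alone. Nf1 encodes neurofibromin, which restrains RAS, and Arf is a tumour suppressor product of the Cdkn2a locus. Malignancy, the Arf allele and the tissue sampled cannot be told apart in comparisons with MPNST. Against nerve, the presence of PostnCre cannot be told apart from these either.

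A voltage-gated sodium channel has a large alpha subunit that forms the pore and smaller beta subunits that set its gating and its place in the membrane. In sensory neurons the alpha subunits fall into a class that tetrodotoxin blocks and a class that it does not, and the resistant class is known from nociceptors, the neurons that signal pain. Axons run in nerve, but the cell bodies that hold most neuronal transcripts lie in the ganglion. Scn7a stands apart from the other alpha subunits, since its product responds to the extracellular sodium level rather than to voltage and is made by glial cells as well as neurons.

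Scn10a and Scn11a encode the resistant channels and lie on mouse chromosome 9. Their promoter windows are shown because their transcripts were the pair that was near zero in every MPNST library. The RefSeq windows on build GRCm38.p6 run from 250 bases before to 50 bases after the start of each gene and are written on the minus strand, 5′ to 3′. The Scn10a window is chr9:119718983-119719282 and the Scn11a window is chr9:119825407-119825706. Capitals mark the longest run of bases that both windows hold on the strand shown.
Scn10a: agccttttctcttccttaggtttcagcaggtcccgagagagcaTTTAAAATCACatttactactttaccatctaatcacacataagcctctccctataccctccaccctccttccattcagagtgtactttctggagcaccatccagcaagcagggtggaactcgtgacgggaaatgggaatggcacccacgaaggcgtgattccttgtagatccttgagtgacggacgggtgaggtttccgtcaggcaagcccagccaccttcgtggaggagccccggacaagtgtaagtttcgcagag
Scn11a: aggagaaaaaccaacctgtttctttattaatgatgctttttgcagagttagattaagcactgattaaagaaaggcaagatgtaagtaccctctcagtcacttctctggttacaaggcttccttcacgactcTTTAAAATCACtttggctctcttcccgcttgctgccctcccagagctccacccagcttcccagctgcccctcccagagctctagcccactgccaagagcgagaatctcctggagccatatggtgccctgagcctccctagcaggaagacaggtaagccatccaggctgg
The shared run, TTTAAAATCAC, has 11 bases and begins 207 bases before the Scn10a start and 119 bases before the Scn11a start. It was picked because both windows hold it, and 8 of 32851 windows in the RefSeq table (0.0244%) hold it on either strand. Windows were found for 8 of the 9 members, not for Scn3a, and with 1 window taken per gene the longest shared run among their 28 pairs was between 6 and 12 bases. The pair with 12 bases was Scn7a and Scn4b. Motifs were searched on both strands. The E-box, spelled CANNTG, had 1 match in the Scn10a window and 2 in the Scn11a window, and 72.3% of all windows hold it. The SOX core (ACAAAG) is in 18.7% of all windows and had no match in these. The same held for the TATA box (TATAAA), present in 13.6% of all windows, and for the homeodomain core (TAATTA), present in 5.29%.

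Total counts per library were between 13886399 and 23652959 in MPNST, between 15307987 and 20056513 in neurofibroma and between 14303986 and 20335697 in nerve. Levels are given as CPM, a gene's counts per 1000000 counts of its library. Several libraries stood apart on marker lists of cell types. MPNST 6 had 4424 CPM summed over 8 sympathoadrenal markers, against at most 2.05 CPM in the other MPNST. MPNST 3 had 55955 CPM over 10 skeletal muscle markers, none of them at 0, against at most 18.4 CPM in the other MPNST. MPNST 2 had 343918 CPM over the 7 salivary gland markers found, of which Smgc was at 0 in all MPNST, and this lowers the CPM of its other genes. Nerve 6 had 1134 CPM over oligodendrocyte and astrocyte markers and 352 CPM over brain neuron markers. Neurofibroma 1 had 2018 CPM of the skeletal muscle markers, against at most 65.7 CPM in the other neurofibromas, and nerve 3 had 526 CPM. The 20 sensory neuron markers summed to 11.2 to 8035 CPM in MPNST (median 134), 14211 to 18543 CPM in neurofibroma and 13015 to 21777 CPM in nerve, with Nefl, a neurofilament gene, as the leading gene. The fibroblast list, led by Col1a2, summed to 547 to 10718 CPM in MPNST, 1375 to 3024 CPM in neurofibroma and 170.0 to 1203 CPM in nerve. The macrophage list, led by C1qa, summed to 116 to 1991 CPM in MPNST, 90.0 to 213 CPM in neurofibroma and 28.0 to 147 CPM in nerve. The lists for non-myelinating Schwann cells, satellite glia, endothelium and heart muscle summed to at most 1499 CPM in any library. The labels name no batch, but the table's column names form 2 ascending runs, each with 3 libraries of every group, and results within each run are given below.

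The 9 members together took 0.0295% of all counts in the median MPNST library (0.00471% to 0.0860%), 0.253% in neurofibroma (0.209% to 0.283%) and 0.333% in nerve (0.176% to 0.356%). In bulk RNA, fewer cells of a type and less RNA per cell cannot be told apart. Levels of different genes were compared as CPM per kb of the longest coding transcript. Neurofibroma and nerve had a broad mixture in which the largest share of any member in a library was 34.2% of the summed level, and in 5 of 6 MPNST libraries a single member held over 50%. The summed level was 45.9 CPM per kb in the median MPNST library (5.27 to 118.1), 364.6 CPM per kb in neurofibroma (299.6 to 413.6) and 482.5 CPM per kb in nerve (252.6 to 520.0).

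Scn7a held the largest median share of this summed level in MPNST, at 70.3% (6.94% to 95.7%), against 23.5% in neurofibroma (20.7% to 34.2%) and 18.1% in nerve (17.1% to 20.3%). It led in 4 MPNST libraries, with 95.7% in MPNST 1, 93.0% in MPNST 5, 88.2% in MPNST 4 and 52.4% in MPNST 2. Scn4b led in MPNST 3 with 56.1%, and Scn3a led in MPNST 6 with 45.4%. Scn8a made up 41.4% in MPNST 2, where the summed level was the lowest of all libraries. Scn7a thus led in most MPNST libraries, but neither the leading member nor its share was common to all 6.

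**Figure D1:**
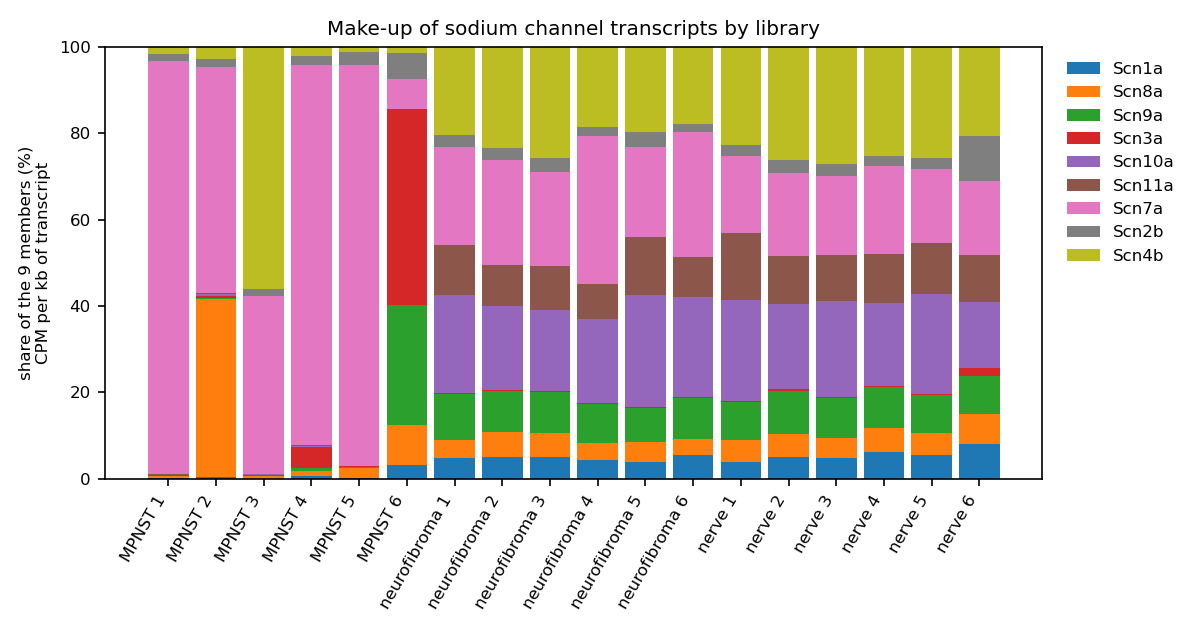
Share of each of the 9 members (percent, y axis) in the summed CPM per kb of each of the 18 libraries (x axis), MPNST first, then neurofibroma and nerve. Bars of neurofibroma and nerve look alike, with Scn10a, Scn4b and Scn7a as the broadest bands, and MPNST bars are led by Scn7a in 4 libraries, by Scn4b in MPNST 3 and by Scn3a in MPNST 6.

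The order of levels per kb also differed between groups in its spacing. In MPNST the median level of Scn7a was 18.02 CPM per kb, that of the next gene, Scn2b, was 0.924 CPM per kb, and every pair of neighbours in the order overlapped over libraries. In neurofibroma, Scn7a at 83.3, Scn10a at 75.5 and Scn4b at 71.2 CPM per kb overlapped with each other and lay above Scn11a at 36.4 and Scn9a at 33.8. Below these came Scn1a at 16.7, Scn8a at 16.2 and Scn2b at 9.11 CPM per kb, and Scn3a was lowest at 0.893. In nerve, Scn4b came first at 124.1 CPM per kb, before Scn10a at 101.2 and Scn7a at 92.2, and neighbours overlapped down to Scn2b at 13.8. Scn3a, known as an alpha subunit of the embryonic nervous system, was the lowest member in nerve too, at 1.25 CPM per kb, with no library as high as any Scn2b value.

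In MPNST compared with neurofibroma, 5 of 9 members fell (Scn1a, Scn8a, Scn10a, Scn11a and Scn2b) at an adjusted p below 0.05 in edgeR's quasi-likelihood test, and 4 did not pass. Over all genes, 42.0% were called in either direction and 16.8% were called lower. In MPNST compared with nerve, 6 of 9 members fell, the same 5 and Scn4b, and 3 did not pass. Here 46.0% of all genes were called in either direction and 18.4% lower. The median log2 change of the 9 members was -3.20 against neurofibroma and -3.53 against nerve, beside a median of 0.22 over all genes in both comparisons. Both comparisons share the MPNST libraries, so their values are not independent. All 6 MPNST libraries lay below every neurofibroma library for 7 of 9 members and below every nerve library for 6 of 9, where 16.2% and 15.5% of all genes did so. The sensory neuron list was lower in MPNST as well, with a median sum of 134 CPM in MPNST, 15244 CPM in neurofibroma and 18286 CPM in nerve, and its part in the members' change was not tested.

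**Figure D2:**
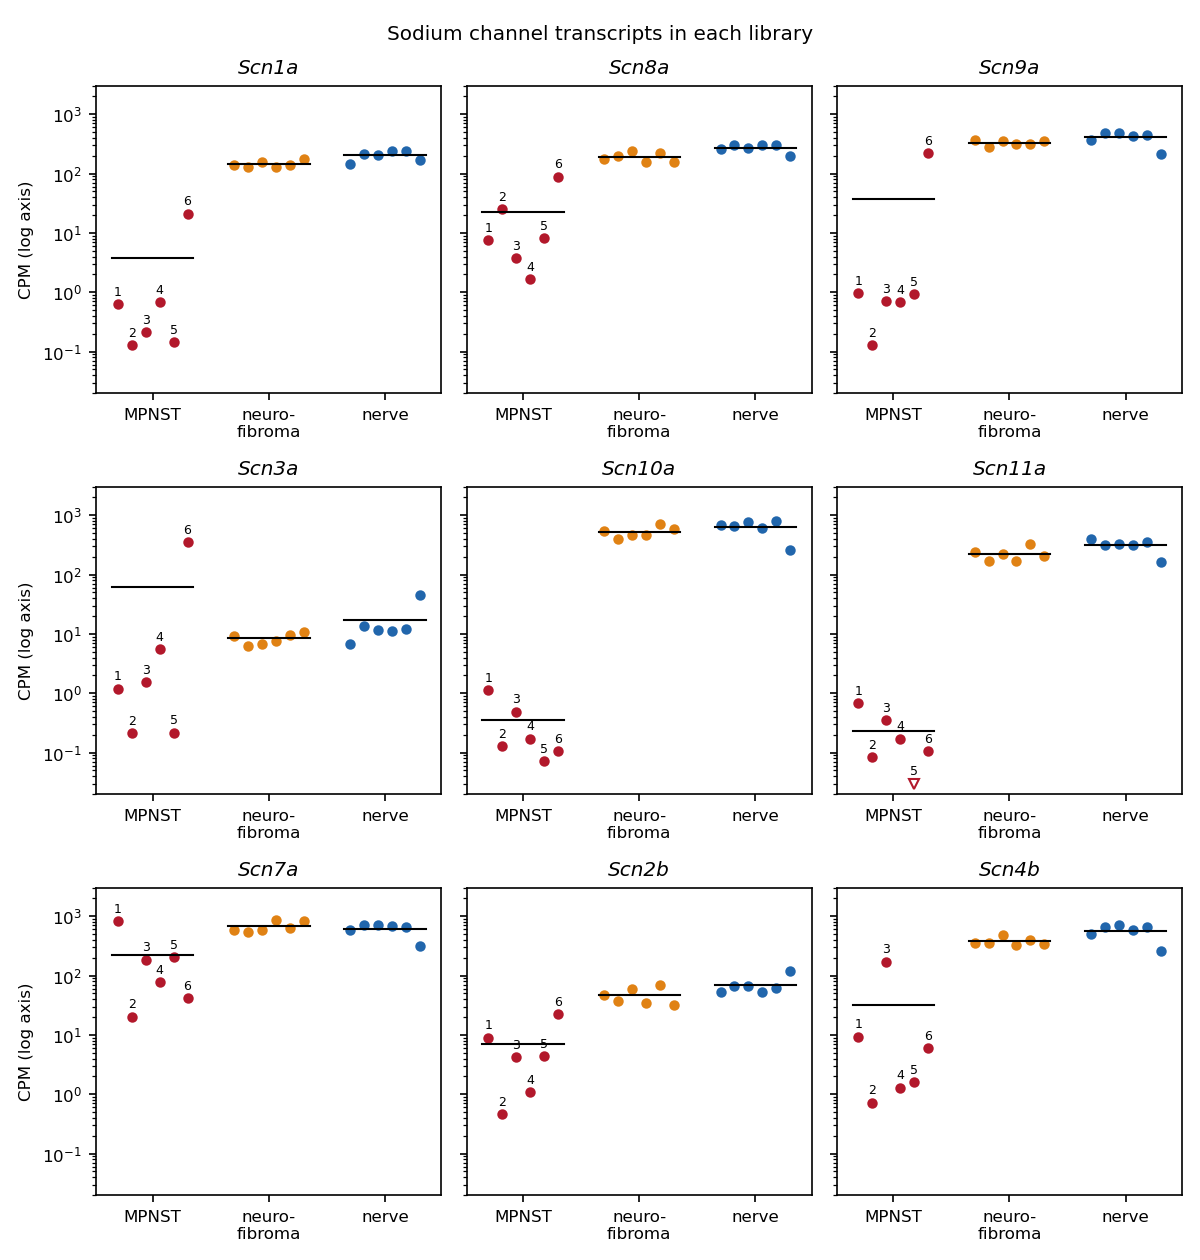
CPM on a log axis (y axis) of each member in the 6 libraries of each group, MPNST, neurofibroma and nerve from left to right, with the library number beside MPNST points and the mean of each group as a line. The open triangle marks a count of 0. Scn10a and Scn11a are at or below 1.14 CPM in every MPNST library, and single MPNST libraries stand high for Scn3a, Scn9a, Scn7a and Scn4b.

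Scn10a, the tetrodotoxin-resistant channel that carries most of the action potential current in nociceptors, was at 0.0720, 0.149 and 1.14 CPM (lowest, median and highest) in MPNST. It was at 392.0, 504.9 and 719.1 CPM in neurofibroma and at 259.4, 677.5 and 805.2 CPM in nerve. The counts behind the MPNST values were between 1 and 20 per library, so these levels rest on few counts. The log2 change was -10.34 (SE 0.72, adjusted p = 2.5e-06) against neurofibroma and -10.60 (SE 0.79, adjusted p = 4.36e-06) against nerve. MPNST averaged 0.351 ± 0.416 CPM and neurofibroma 529.5 ± 116.2 CPM (SD, n = 6 each).

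Scn11a, the persistent-current channel of nociceptors, was at 0, 0.138 and 0.685 CPM in MPNST, at 168.7, 214.7 and 329.2 CPM in neurofibroma and at 163.6, 323.7 and 402.3 CPM in nerve. MPNST 5 had a count of 0, which allows up to 0.216 CPM at 3 counts. The log2 change was -9.67 (SE 0.68, adjusted p = 2.59e-06) against neurofibroma and -10.17 (SE 0.72, adjusted p = 3.63e-06) against nerve. Both resistant channels were called in each within-run fit of both comparisons and without any single library. MPNST 6, which stood high for other neuronal members, had 0.105 CPM of each. Its sensory neuron list summed to 8035 CPM, against 11.2 to 213.6 CPM in the other MPNST. In that library Prph, Isl1 and Elavl4, shared by several kinds of peripheral neuron, were at 688, 536 and 310 CPM. Pou4f1, Trpv1 and Calca, which mark sensory neurons and nociceptors, were at 0.105, 0.105 and 0.367 CPM there.

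Of the channels that tetrodotoxin blocks, Scn9a is known from nociceptors and sympathetic neurons. It was at 0.127, 0.819 and 223.9 CPM in MPNST, at 278.4, 332.2 and 370.0 CPM in neurofibroma and at 215.9, 444.8 and 493.3 CPM in nerve. The highest MPNST value was that of MPNST 6, and the other 5 libraries were at or below 0.970 CPM. MPNST and neurofibroma did not overlap, yet the log2 change of -3.20 (SE 1.52, adjusted p = 0.109) did not pass, nor did that of -3.53 (SE 1.55, adjusted p = 0.0801) against nerve. Without MPNST 6 the change was -8.73 (adjusted p = 5.19e-09) against neurofibroma and -9.06 (adjusted p = 4.73e-08) against nerve.

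Scn3a was at 0.211, 1.37 and 355.9 CPM in MPNST, at 6.17, 8.54 and 10.8 CPM in neurofibroma and at 6.83, 11.99 and 45.7 CPM in nerve. MPNST 6 lay above every neurofibroma and nerve library, and the other 5 MPNST libraries, at up to 5.54 CPM, lay below all of them. The fitted log2 change was 2.78 (SE 1.51, adjusted p = 0.157) against neurofibroma and 1.76 (SE 1.495, adjusted p = 0.350) against nerve. Without MPNST 6 it was -2.14 (adjusted p = 0.0140) against neurofibroma and -3.15 (adjusted p = 0.00493) against nerve, so that the direction turned. Among the sympathoadrenal markers of MPNST 6, Th and Dbh, which encode enzymes of catecholamine synthesis, were at 1736 and 705 CPM, and none of the 8 was at 0. The part of cells with these markers in the Scn3a and Scn9a levels was not tested.

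Scn1a, a channel of large sensory neurons and of central neurons, was at 0.127, 0.419 and 21.1 CPM in MPNST, at 127.1, 139.7 and 179.6 CPM in neurofibroma and at 146.2, 210.1 and 241.8 CPM in nerve. The highest MPNST value again belonged to MPNST 6, and the others were at or below 0.687 CPM. The log2 change was -5.29 (SE 1.20, adjusted p = 0.00472) against neurofibroma and -5.79 (SE 1.24, adjusted p = 0.00292) against nerve. Without MPNST 6 it was -8.37 and -8.87.

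Scn8a encodes the channel that is dense at nodes of Ranvier. It was at 1.67, 7.84 and 88.3 CPM in MPNST, at 154.9, 185.3 and 240.8 CPM in neurofibroma and at 201.8, 285.3 and 299.9 CPM in nerve. All MPNST libraries lay below all others. The log2 change was -2.64 (SE 0.86, adjusted p = 0.0274) against neurofibroma and -3.17 (SE 0.88, adjusted p = 0.0118) against nerve. The call against neurofibroma was lost without MPNST 5 (adjusted p = 0.0516). Within the first and the second run of column names Scn8a did not pass against neurofibroma (adjusted p = 0.157 and 0.197) or against nerve (adjusted p = 0.0918 and 0.150). MPNST 2 held 24.9 CPM of Scn8a, the second highest MPNST value, where its sensory neuron list was the lowest of all libraries at 11.2 CPM.

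Scn7a was at 20.3, 132.2 and 829.4 CPM in MPNST, at 536.2, 611.6 and 882.2 CPM in neurofibroma and at 317.9, 676.9 and 705.6 CPM in nerve. MPNST 1 was within the neurofibroma range and above every nerve library, and the other 5 MPNST libraries were at or below 205.7 CPM. The log2 change did not pass against neurofibroma (-1.52, SE 0.63, adjusted p = 0.0711) or against nerve (-1.39, SE 0.65, adjusted p = 0.0952). Without MPNST 1 it was -2.44 (adjusted p = 0.00266) and -2.31 (adjusted p = 0.00402). MPNST 1 also had the highest Schwann lineage list of the MPNST, at 2279 CPM.

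Scn7a was set against the summed CPM of 12 Schwann lineage markers as log2((CPM + 0.5) / summed CPM). This log2 ratio averaged -2.24 ± 0.96 in MPNST and -4.81 ± 0.40 in neurofibroma (SD, n = 6 each), a difference of 2.58 with all 6 MPNST libraries above every neurofibroma (exact two-sided permutation test, p = 0.00216, the smallest that the splits of 6 against 6 can give, and 0.0119 adjusted over 11 ratios). Against nerve, at -4.06 ± 0.74, the difference was 1.82 and 4 of 6 MPNST libraries lay above every nerve (exact p = 0.00649, adjusted 0.0238). The list itself summed to 128 to 2279 CPM in MPNST, 14457 to 24517 CPM in neurofibroma and 5677 to 16223 CPM in nerve. Sox10, a transcription factor of the whole lineage, was at 5.32 to 248 CPM in MPNST, 129 to 257 CPM in neurofibroma and 69.4 to 168 CPM in nerve. The non-myelinating Schwann cell list summed to 74.7 to 1096 CPM in MPNST, 1052 to 1499 in neurofibroma and 803 to 1287 in nerve. A ratio of Scn7a to that list was not tested, so the differences above hold for the 12 markers only.

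**Figure D3:**
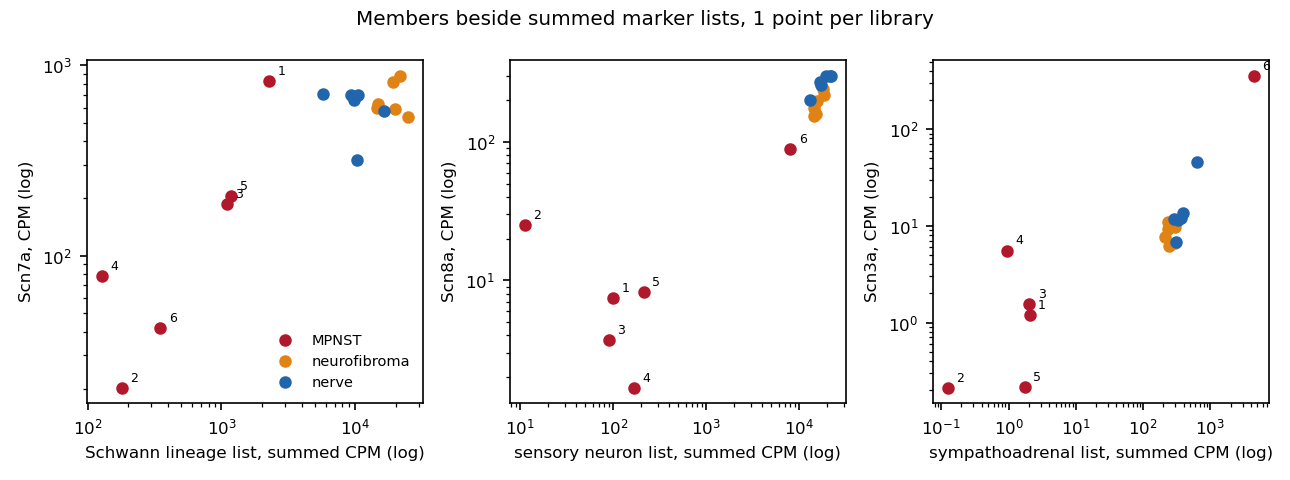
CPM of Scn7a, Scn8a and Scn3a (y axes, log) against the summed CPM of the Schwann lineage, sensory neuron and sympathoadrenal marker lists (x axes, log), 1 point per library, in MPNST, neurofibroma and nerve, with MPNST libraries numbered. MPNST 6 is the highest point for Scn3a at 355.9 CPM, and MPNST 2 holds 24.9 CPM of Scn8a beside the lowest neuron list.

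Of the beta subunits, Scn2b, which is linked to the alpha subunit by a disulphide bond, was at 0.465, 4.30 and 22.4 CPM in MPNST, at 31.8, 42.4 and 68.5 CPM in neurofibroma and at 52.3, 64.2 and 120.3 CPM in nerve. MPNST overlapped with neither other group. The log2 change was -2.73 (SE 0.64, adjusted p = 0.0056) against neurofibroma and -3.33 (SE 0.65, adjusted p = 0.00181) against nerve, and both calls held without any single library.

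Scn4b, the beta subunit known for resurgent sodium current, was at 0.719, 3.78 and 172.1 CPM in MPNST, at 325.4, 354.7 and 479.3 CPM in neurofibroma and at 260.5, 618.5 and 701.5 CPM in nerve. The highest MPNST value was that of MPNST 3, the library with skeletal muscle markers, and the others were at or below 9.30 CPM. Scn4b fell against nerve (log2 change -3.85, SE 1.29, adjusted p = 0.0282), a call lost without MPNST 1 (adjusted p = 0.0537), and did not pass against neurofibroma (-3.25, SE 1.24, adjusted p = 0.0512, and 0.0461 with RLE normalization). Without MPNST 3 the change was -7.16 (adjusted p = 4.64e-05) against nerve and -6.58 (adjusted p = 3.14e-05) against neurofibroma. The part of muscle in the MPNST 3 level was not tested.

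**Figure D4:**
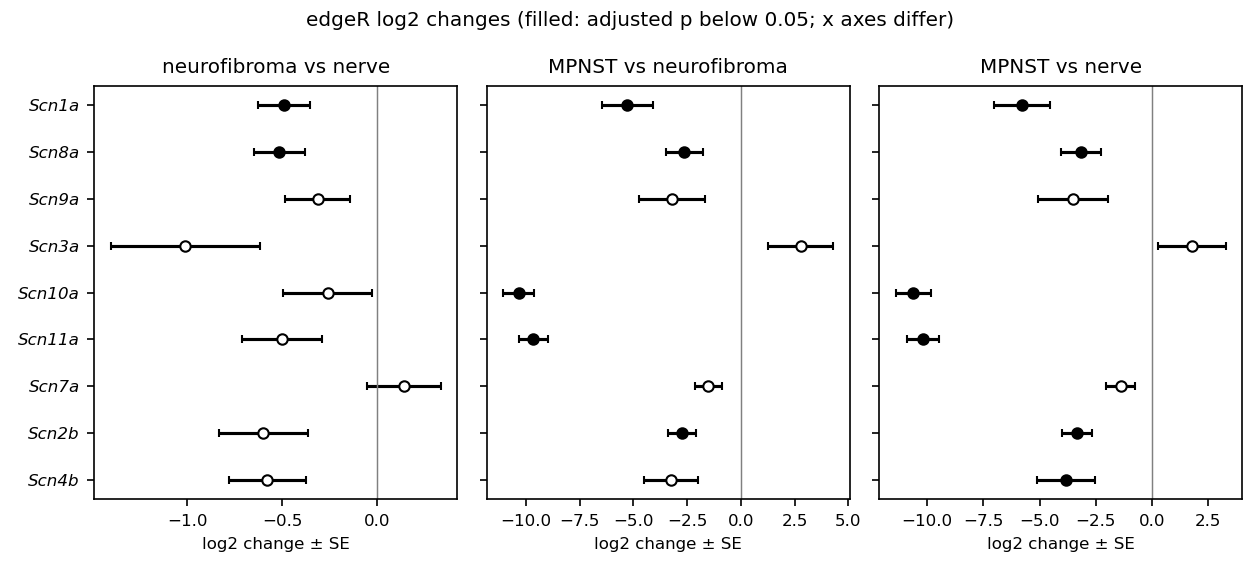
Fitted log2 change with its SE (x axes, which differ in scale) of each member (y axis) for neurofibroma against nerve, MPNST against neurofibroma and MPNST against nerve. Filled points passed an adjusted p below 0.05, which 2, 5 and 6 members did, all of them lower, and Scn10a and Scn11a lie at changes between -9.67 and -10.60 in both MPNST panels.

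Neurofibroma differed far less from nerve. Of 9 members, 2 fell in neurofibroma (Scn1a and Scn8a) and 7 did not pass, where 13.9% of all genes were called and 6.00% were called lower. The members' median log2 change was -0.50, beside -0.02 over all genes, and 8 of 9 fitted changes were below 0. Scn8a, the nodal channel, averaged 190.9 ± 34.4 CPM in neurofibroma and 271.6 ± 38.2 CPM in nerve (SD, n = 6 each; log2 change -0.52, SE 0.13, adjusted p = 0.0251), with 4 of 6 neurofibromas below every nerve. No member had all 6 neurofibromas below every nerve, which 2.14% of all genes had. Scn1a averaged 145.5 ± 20.3 CPM in neurofibroma and 203.1 ± 38.2 CPM in nerve (log2 change -0.49, SE 0.14, adjusted p = 0.0345), and again 4 of 6 lay below every nerve.

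Both calls were marginal to single libraries. That of Scn8a was lost without neurofibroma 1 (the library with skeletal muscle markers), neurofibroma 4 or nerve 5 (adjusted p = 0.0505, 0.0547 and 0.0580), and that of Scn1a in 8 of 12 such fits (highest adjusted p = 0.0767) and with no filter on low counts (adjusted p = 0.0567). In 1 fit of all 18 libraries neither was called (adjusted p = 0.954 for Scn8a and 0.969 for Scn1a). That fit called 2 of 17316 genes in all, against 2295 of 16464 in the main fit. Nerve 6 was the lowest nerve library for 6 members (Scn7a, Scn8a, Scn9a, Scn10a, Scn11a and Scn4b) and the highest for Scn3a and Scn2b. Without it 6 members were called, where 3817 of 16631 genes were called in all. The 4 members that joined were Scn4b at -0.73 (adjusted p = 0.00223), Scn9a at -0.45 (0.00838), Scn11a at -0.63 (0.0163) and Scn10a at -0.42 (0.0493). The part of the brain and glial transcripts of nerve 6 in these values was not tested.

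The other members gave values without a call. Scn4b averaged 376.9 ± 57.0 CPM in neurofibroma and 560.6 ± 163.5 CPM in nerve (log2 change -0.58, SE 0.20, adjusted p = 0.0712). Scn11a averaged 223.0 ± 59.5 CPM in neurofibroma and 314.5 ± 81.0 CPM in nerve (-0.50, SE 0.21, adjusted p = 0.124). Scn10a averaged 529.5 ± 116.2 CPM in neurofibroma and 632.4 ± 196.8 CPM in nerve (-0.26, SE 0.23, adjusted p = 0.469). Thus the resistant channels, near zero in MPNST, were abundant in both trigeminal groups. Scn9a had a change of -0.31 (adjusted p = 0.227), Scn2b of -0.60 (0.104), Scn3a of -1.01 (0.0982) and Scn7a of 0.14 (0.654).

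Because a bulk level moves with the share of neurons in a piece of nerve, the 8 members other than Scn7a were also set against the summed sensory neuron list. Scn8a was the member whose log2 ratio passed the test, at -6.39 ± 0.13 in neurofibroma and -6.06 ± 0.09 in nerve (SD, n = 6 each). The difference was -0.33, with all 6 neurofibromas below every nerve (exact two-sided permutation p = 0.00216, the smallest possible, adjusted 0.0119), and the adjusted p was at most 0.0238 without any single library. That separation depends on summing the list, where genes of high level weigh most. With the mean log2(CPM + 1) of the list in place of its sum, Scn8a still passed. The groups then overlapped, with neurofibroma 2 above nerve 2. Scn4b had a difference of the same size, -0.33, that did not pass (exact p = 0.0390, adjusted 0.107), and without nerve 6 it was -0.45 (adjusted 0.0119). Scn10a had the smallest difference, -0.02 (exact p = 0.968, adjusted 0.968), and Scn9a had -0.08 (exact p = 0.554, adjusted 0.610). The remaining 4 differences were between -0.29 and -0.54, with adjusted p between 0.131 and 0.373. For Scn7a against the Schwann lineage list, neurofibroma was lower than nerve by a log2 ratio difference of -0.75, which did not pass after adjustment (exact p = 0.0498, adjusted 0.110).

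Within the first run of column names, with 3 libraries a group, 6 members were called in MPNST against neurofibroma, where 4375 of 17229 genes were called in all, and 6 against nerve, where 5107 of 17120 were. Scn8a was not among them in either comparison, Scn9a was in both, and Scn4b was in both. Within the second run, which holds MPNST 3, 5 and 6, 2 members were called in each, Scn10a and Scn11a, where 1473 of 16612 genes were called against neurofibroma and 1136 of 16297 against nerve. In neurofibroma against nerve, edgeR called 0 members in either run, with 5 and 3 at an unadjusted p below 0.05, where 0 of 17032 genes and 5 of 16224 genes were called in all. The changes of Scn8a were -0.43 and -0.64 in the runs and those of Scn1a -0.40 and -0.60. With the run as a term in the fits of 12 libraries, 2, 6 and 7 members were called in neurofibroma against nerve, MPNST against neurofibroma and MPNST against nerve. Of all genes, 1908 of 16464, 6632 of 16537 and 7303 of 16384 were called in these fits.

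Other genes of the family give a wider view, namely Nalcn, Scn2a, Scn3b and Scn4a. In neurofibroma against nerve, Nalcn, the sodium leak channel, fell (log2 change -0.37, SE 0.11, adjusted p = 0.0365), and the other genes named did not pass (adjusted p between 0.0841 for Scn2a and 0.817 for Scn4a). In MPNST against neurofibroma the adjusted p of these genes was between 0.118 (Scn3b, log2 change -2.26) and 0.949 (Scn2a, log2 change -0.08), and against nerve it was between 0.0971 (Scn3b, log2 change -2.37) and 0.446 (Scn2a, log2 change -0.89). Single libraries were high in this set too. Scn4a, the skeletal muscle channel, was at 395.0 CPM in MPNST 3, against at most 1.60 CPM in the other MPNST, at most 10.9 CPM in neurofibroma and at most 6.71 CPM in nerve. Scn2a, a channel of central neurons, was at 90.2 CPM and Scn3b at 78.4 CPM in MPNST 6, against at most 4.63 and 4.17 CPM in the other MPNST.

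A list of 21 genes for anchoring, trafficking and regulation of the channels was set beside them. In neurofibroma against nerve 4 fell and 17 did not pass, with a median log2 change of -0.31, beside 6.00% of all genes called lower and a median of -0.02 over all genes. Among these, Nedd4l, a ubiquitin ligase that removes channels from the membrane, averaged 105.7 ± 26.5 CPM in neurofibroma and 193.9 ± 61.5 CPM in nerve (log2 change -0.87, SE 0.22, adjusted p = 0.0221). Sptbn4, the spectrin of nodes and axon initial segments, averaged 56.9 ± 8.27 CPM in neurofibroma and 90.7 ± 11.2 CPM in nerve (-0.68, SE 0.11, adjusted p = 0.00366). In MPNST 12 of 21 fell against neurofibroma and 14 of 21 against nerve, where 16.8% and 18.4% of all genes were called lower. The list's median log2 changes were -1.91 and -2.04, beside 0.22 over all genes in both. Fgf12, an intracellular FGF that binds the channel's tail, averaged 0.571 ± 0.404 CPM in MPNST, 284.3 ± 30.3 CPM in neurofibroma and 357.2 ± 78.9 CPM in nerve. Its log2 change was -8.80 (SE 0.44, adjusted p = 2.11e-07) against neurofibroma and -9.15 (SE 0.49, adjusted p = 5.08e-07) against nerve. Tmem233, a membrane protein that modulates sodium channels in sensory neurons, averaged 3.66 ± 8.49 CPM in MPNST, 237.0 ± 28.4 CPM in neurofibroma and 301.4 ± 56.4 CPM in nerve. Its log2 change was -5.69 (SE 1.46, adjusted p = 0.00895) against neurofibroma and -6.06 (SE 1.502, adjusted p = 0.00663) against nerve. The SD of Tmem233 in MPNST was larger than its mean, and no change without single libraries is given for it.

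The genes outside the family whose pattern over the 18 libraries lay nearest to each member were found by the root-mean-square distance of centred log2(CPM + 1) values, as a description with no test. Scn11a lay nearest to Ppp1r1c at 0.241 and Slc17a6, a vesicular glutamate transporter, at 0.270. Scn10a lay nearest to Ppp1r1c at 0.447 and Calca, the gene of the neuropeptide CGRP, at 0.532. Scn1a lay nearest to Kcnh7 at 0.237, a potassium channel, and Diras1 at 0.264. Scn9a lay nearest to Mapk8ip2 at 0.262 and Ctnna2 at 0.317. Among the genes nearest to Scn8a was Hapln4 at 0.474, a link protein of the nodal matrix. Scn7a lay nearest to Cnp, a protein of myelinating glia, at 0.471 and Gm2115 at 0.477. Scn2b lay nearest to Peg3 at 0.403 and Rragb at 0.429. The largest distances among the 9 members were those of Scn3a and Scn4b, whose nearest genes were Cnih2 at 0.602 and Zdbf2 at 0.605 for Scn3a, and Ank1 at 0.664 and Lrrn1 at 0.673 for Scn4b. All these distances share the same 18 libraries and their depth.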

How the data were processed

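Poly(A) RNA of 18 samples was isolated with column kits and sequenced from stranded libraries, per the labels' protocols. The authors deposited 1 table of estimated counts per gene, not normalized. Salmon 1.4.0, FastQC, DESeq2 and the build GRCm39 are named in the submitters' processing notes. The annotation release is not given in the sources used here, nor are Salmon's settings. Every column was matched to a sample by its title. Library numbers are names in accession order. Nothing says how animals were assigned to neurofibroma and nerve libraries. The p-values there set the group difference against the spread between these libraries only.

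Estimated counts were rounded, and each comparison was fitted on its 12 libraries by edgeR's quasi-likelihood test (version 4.0.16, run in R 4.3.3), after filterByExpr and TMM scaling, with Benjamini-Hochberg adjustment over all genes tested (16464, 16537 and 16384 in neurofibroma against nerve, MPNST against neurofibroma and MPNST against nerve). All 9 members passed the filter on low counts in each. The fit was also run on simulated counts, with an outcome not reported here. These gave each gene the same expected share of counts in all libraries of a group. Libraries that stand apart from their group were thus not covered. Fitted changes use TMM-scaled library sizes and CPM do not. Ratios to marker lists were tested by exact two-sided permutation of the group labels, adjusted over 11. Lengths came from an annotation of another build (GRCm38) and serve only to scale levels. Salmon's estimates could split reads between related members, and this was not tested. Counting error alone gives 31.6% at 10 counts and 10.0% at 100, and intervals and floors (3 counts) cover counting error only. Replicates differed by a chi-square of at least 18.8 per degree of freedom, and no library was treated as a duplicate.

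The members, the marker and pathway lists (127 of 128 entries found) and the tests were chosen with earlier results of these data known. Text names all members, genes of the other subunit list, and the 2 called genes with the largest rise and fall of the anchoring list per comparison. It also names the 2 nearest genes in pattern per member, the leading gene of marker lists, and marker genes of libraries that stood apart, the last chosen after their values were seen. Some genes that this rule names are not reported here. Alternatives were RLE and upper quartile normalization, no filter or at least 1 CPM in 6 samples, DESeq2 1.42.0, limma-voom 3.58.1 with quality weights, a robust fit, 1 fit of all 18 samples, a pseudocount of 0.1 in ratios, and leaving out each library or 5 libraries. Ratios were also taken to the mean log2(CPM + 1) of a list in place of its sum. Fits by run of column names were chosen after seeing the data.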

Additional observations from a re-analysis of the deposited data

Results flagged for a closer look

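Of 27 groups of 6 libraries (9 members in 3 groups), 11 held a library set apart from the rest by Dixon's test on CPM at the 95% level. That level flags about 1 in 20 groups of normally distributed values. Here the SD of CPM in MPNST was 107.7% to 240.5% of the mean, and the 27 groups share the same 18 libraries. The count of flags therefore cannot be set against that rate. MPNST 6 was set apart for Scn1a at 21.1 CPM (next 0.687), Scn3a at 355.9 CPM (next 5.54), Scn8a at 88.3 CPM (next 24.9) and Scn9a at 223.9 CPM (next 0.970). MPNST 1 was set apart for Scn7a at 829.4 CPM (next 205.7), and MPNST 3 for Scn4b at 172.1 CPM (next 9.30). Nerve 6 was set apart on the high side for Scn3a at 45.7 CPM and Scn2b at 120.3 CPM. On the low side it was set apart for Scn7a at 317.9 CPM, Scn10a at 259.4 CPM and Scn11a at 163.6 CPM. The flags fell in 3 MPNST libraries and in nerve 6, whose marker list values stand beside the results above. No neurofibroma library was flagged for any of the 9 members.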

How the results depend on the processing

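Scn10a, Scn11a, Scn1a and Scn2b stayed below neurofibroma and below nerve in MPNST under every alternative run, and their calls were kept in each except that Scn1a and Scn2b did not pass within the second run of column names. The number of members called in neurofibroma against nerve, 2, was 1 with no filter on low counts, 4 with DESeq2, 5 with limma-voom, 0 in 1 fit of all 18 samples (0 at an unadjusted p below 0.05), 5 without MPNST 2, 3 and 6, nerve 6 and neurofibroma 1, 0 in both runs of column names, and between 0 and 6 when each library was left out. Of all genes in that comparison, 1438 of 33221 were called with no filter, 3499 of 16464 with DESeq2 and 4026 of 16464 with limma-voom. The fit of all 18 samples called 2 of 17316 genes, and that without the 5 libraries 3421 of 16455. With each library left out, between 1147 and 3817 genes were called. In MPNST against neurofibroma, 8 members were called with DESeq2, 9 with limma-voom and 7 in 1 fit of all 18 samples, against 5. Those settings called 7872 and 9747 of 16537 genes and 8579 of 17316. The second run called 2 members. With each library left out, between 4 and 7 members were called, where between 5899 and 9123 of all genes were. In MPNST against nerve, 7 members were called with DESeq2, 9 with limma-voom and 8 in 1 fit of all 18 samples, against 6. Those settings called 8337 and 10382 of 16384 genes and 9611 of 17316. The second run called 2 members. With each library left out, between 6 and 8 members were called, where between 6508 and 9447 of all genes were. Scn3a turned below neurofibroma with limma-voom (-2.92), without the 5 libraries (-1.89) and in the first run (-1.62), and below nerve under the same settings (-3.40, -2.37 and -2.21). With each library left out it was between -2.14 (without MPNST 6) and 3.14 against neurofibroma, and between -3.15 (without MPNST 6) and 2.32 against nerve. In neurofibroma against nerve, Scn7a was -0.19 in the first run and Scn10a 0.030 in the second. The cause was not tested beyond the libraries left out. The ratio of Scn4b to the neuron list was -0.46 (adjusted p = 0.0437) without the 5 libraries. With each library left out it was between -0.45 and -0.23, that of Scn10a between -0.16 and 0.078, and that of Scn7a to the Schwann list in neurofibroma against nerve between -0.94 and -0.54. The median log2 change of all genes was 0.22 with TMM and 0.17 with RLE in MPNST against neurofibroma. No paired analysis was possible because the labels give no replicate numbers that groups share. Counts of at most 20 per library limit what can be said of Scn10a and Scn11a within MPNST.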
